A study of Mus musculus with 4 samples.

Results

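Intercalated disc genes were compared between cardiomyocytes that overexpressed the splicing regulator RBFOX2 and control cardiomyocytes. The set held 10 genes, chosen by symbol from the 48432 gene rows of the authors' table: the gap junction gene Gja1, the desmosomal genes Dsg2, Dsc2, Dsp, Pkp2 and Jup, the adherens junction genes Cdh2, Ctnnb1 and Ctnna3, and the zonula occludens gene Tjp1. The control group (genotype label MHC) and the Rbfox2 OE group (genotype label RbFox2, a non-muscle RBFOX2 isoform according to the series title) held 2 libraries each. Both groups were mice of strain C57BL x FVB that ate a doxycycline diet for 3 days before Langendorff isolation of cardiomyocytes, so the diet was shared by the controls. What drives the transgene, the age and sex of the mice and the number of animals behind a library are not given in the sources used here.

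The intercalated disc is the end-to-end contact between heart muscle cells. Desmosomes anchor intermediate filaments there through cadherins, armadillo proteins and desmoplakin, adherens junctions anchor the actin of the last sarcomere through N-cadherin and catenins, and gap junctions pass the electrical impulse. Inherited variants of desmosomal genes are a known cause of arrhythmogenic cardiomyopathy.

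Expression was given in FPKM (fragments per kilobase of transcript, adjusted for library size), a unit that allows levels of different genes to be set side by side. The authors' table held 1 pooled value for a gene in a group, and with it a lower and an upper bound, given here in parentheses after the value. No spread between libraries could be computed and no test between groups was made. A gene is therefore described by its 2 values, by the log2 ratio of Rbfox2 OE over control with a pseudocount of 1 FPKM, and by whether the authors' bounds of the 2 groups were separate. The level of the bounds and the depth of the libraries are not given in the sources used here. The cardiac troponin gene Tnnt2, a defining marker of cardiomyocytes, measured 10609 FPKM in control and 6917 FPKM in Rbfox2 OE cells, so the labelled cell type was present in both. Rbfox2 itself measured 14.7 FPKM in control and 293 FPKM in Rbfox2 OE cells, in the direction of the label.

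Most of the disc genes were lower in the Rbfox2 OE cardiomyocytes. Of the 10 genes, 6 were lower with separate bounds (Ctnna3, Dsg2, Dsc2, Cdh2, Ctnnb1 and Gja1) and 0 were higher. Among the 11697 genes whose 2 values averaged 1 FPKM or more, 9.33% were lower and 6.67% higher by the same rule. At least 2-fold apart were 5 disc genes, all lower, against 10% of all genes lower and 6.97% higher. The median log2 ratio of the 10 genes was -1.05, beside -0.06 for all genes compared. All 10 passed the minimum of 1 FPKM and had the status OK in both groups, and their summed level, as FPKM, was 788 FPKM in control and 485 FPKM in Rbfox2 OE cells. In the same libraries, 7 of 16 cardiomyocyte markers were lower with separate bounds and markers of other heart cells were higher. The part of this shift in the disc gene values was not tested. On a scale set by the cardiomyocyte markers, 2 disc genes were lower and 1 higher with separate bounds. Of the 12271 genes compared on that scale, 2.50% were lower and 21.1% higher by the same rule. In bulk RNA, fewer cells of a type and less RNA per cell cannot be told apart.

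**Figure D1:**
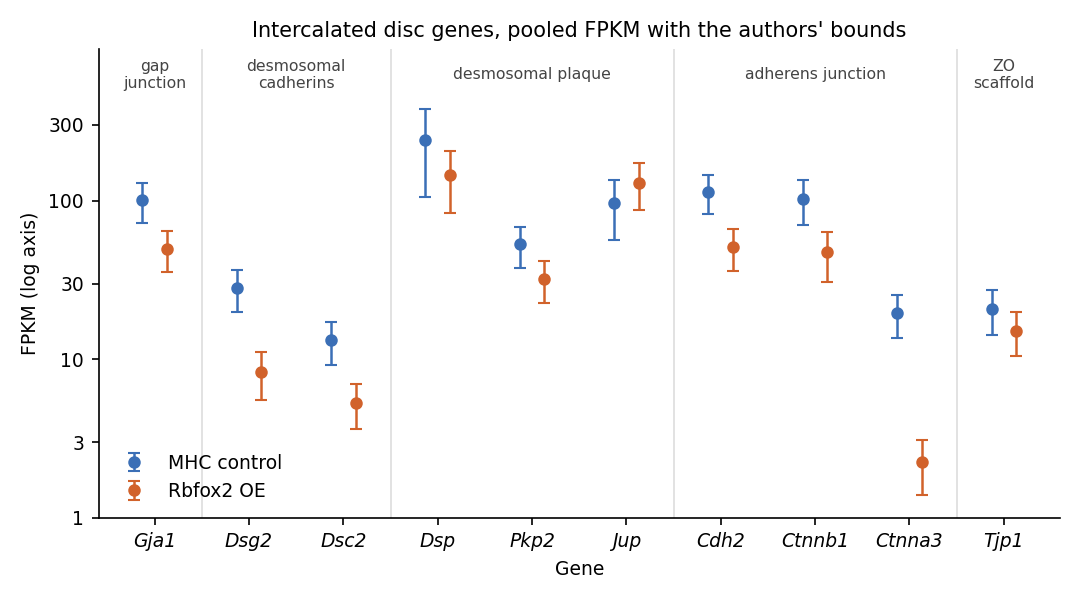
Pooled FPKM (log axis) of the 10 disc genes in MHC control (blue) and Rbfox2 OE (orange), with vertical lines for the authors' lower and upper bounds and 1 value per group. The intervals are separate for Gja1, Dsg2, Dsc2, Cdh2, Ctnnb1 and Ctnna3, and Jup is the 1 gene with the higher value in Rbfox2 OE.

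The members were not lower by the same amount. Levels spanned 18.3-fold from the highest to the lowest of the 10 genes in the control and 64.2-fold in Rbfox2 OE. Desmoplakin was the most abundant in both groups, Dsc2 was the least abundant in the control and Ctnna3 in Rbfox2 OE. In control cells the order of levels was Dsp, Cdh2, Ctnnb1, Gja1, Jup, Pkp2, Dsg2, Tjp1, Ctnna3 and Dsc2, and the bounds of neighbours in it overlapped except between Pkp2 and Dsg2. In Rbfox2 OE cells the order was Dsp, Jup, Cdh2, Gja1, Ctnnb1, Pkp2, Tjp1, Dsg2, Dsc2 and Ctnna3. Neighbours were separate there between Jup and Cdh2, Pkp2 and Tjp1, and Dsc2 and Ctnna3. Jup thus moved ahead of Cdh2, Ctnnb1 and Gja1, and Ctnna3 moved behind Dsc2. The lowest log2 ratio was -2.66 (Ctnna3) and the highest was 0.43 (Jup). The bounds lay between 28.0% and 56.1% of the value away from it, and Dsp had the widest.

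**Figure D2:**
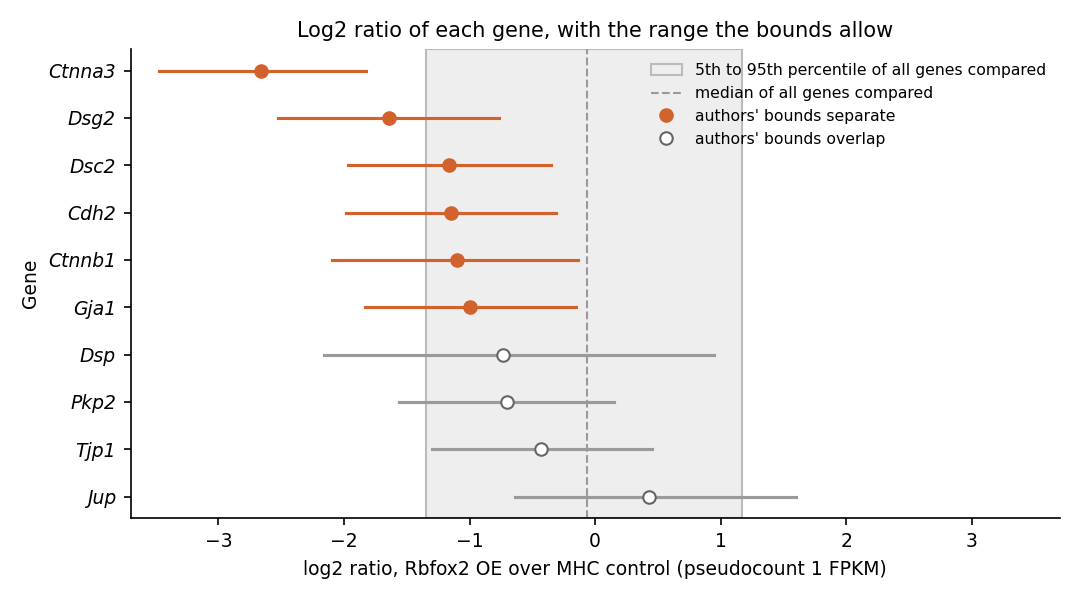
Log2 ratio (Rbfox2 OE over control) for each disc gene (point) with the lowest and highest ratio that the authors' bounds allow (line); the grey band is the 5th to 95th percentile of all genes compared and the dashed line their median. Ctnna3 at -2.66 and Dsg2 at -1.64 lie below the band, and 9 of the 10 genes lie below the median of -0.06.

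The gap junction gene Gja1 encodes connexin 43, the main channel protein of gap junctions in working myocardium. Gja1 (ENSMUSG00000050953, GRCm38 chromosome 10, 56377330 to 56402513, plus strand, a protein-coding gene) measured 100.3 FPKM in the control, with bounds of 71.9 and 129. It measured 49.9 FPKM in Rbfox2 OE, with bounds of 35.3 and 64.5. The intervals did not overlap. The plain ratio was 2.01-fold lower, while the log2 ratio of -0.99 with the pseudocount was just short of the 2-fold rule. Gja1 overlapped no other annotated gene.

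Upstream sequences are shown for 3 disc genes with different values: Gja1, lower with separate bounds, Ctnna3, the lowest log2 ratio, and Jup, the 1 gene with a higher value in Rbfox2 OE. Each run is the 250 bases before the annotated start, 5′ to 3′ on the gene's strand, from RefSeq on GRCm38.p6: chr10:56377050-56377299 (plus) for Gja1, chr10:63429848-63430097 (plus) for Ctnna3 and chr11:100397791-100398040 (minus) for Jup. Capitals mark matches on either strand to the motifs searched. Where RefSeq lists several starts, as for Ctnna3, the one nearest to the annotated gene start is shown.
Gja1: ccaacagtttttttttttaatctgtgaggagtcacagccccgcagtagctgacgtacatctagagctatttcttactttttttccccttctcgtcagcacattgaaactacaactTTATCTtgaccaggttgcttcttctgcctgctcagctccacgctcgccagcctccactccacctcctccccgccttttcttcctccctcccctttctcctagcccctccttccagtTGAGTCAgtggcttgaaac
Ctnna3: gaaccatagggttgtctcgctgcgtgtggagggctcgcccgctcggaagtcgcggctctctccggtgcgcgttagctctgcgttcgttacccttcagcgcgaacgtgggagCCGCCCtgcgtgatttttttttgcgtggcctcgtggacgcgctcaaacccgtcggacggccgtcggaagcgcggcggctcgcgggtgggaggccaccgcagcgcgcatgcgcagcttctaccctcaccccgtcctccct
Jup: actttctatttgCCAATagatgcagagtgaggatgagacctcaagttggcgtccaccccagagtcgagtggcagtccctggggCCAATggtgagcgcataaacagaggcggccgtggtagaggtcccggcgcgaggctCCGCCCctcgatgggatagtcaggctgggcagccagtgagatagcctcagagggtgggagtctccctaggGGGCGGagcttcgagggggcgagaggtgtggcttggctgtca

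The motifs searched were the TATA box (TATAAA), the CCAAT box (CCAAT), the GC box (GGGCGG), the MCAT element (CATTCC), an AP-1 site (TGACTCA) and a GATA site (AGATAA). No motif overlapped another in these 3 windows. The Gja1 window held an AP-1 match that began 19 bases before the start and a GATA match that began 135 bases before it, found in 4.46% and 9.99% of all 32851 upstream windows of that length. The Ctnna3 window held 1 GC box, which 32.7% of all windows held. The Jup window held 2 GC boxes and 2 CCAAT boxes, and 33.8% of all windows held a CCAAT box. TATA and MCAT letters, in 12.4% and 12.6% of all windows, were not in the 3 windows shown, but each occurred in a window of another RefSeq start of Ctnna3. GC content was 50.0% for Gja1, 67.6% for Ctnna3 and 62.0% for Jup, beside a median of 52.4%. The matches describe letters only.

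Ctnna3 encodes αT-catenin, an α-catenin of heart muscle that links the cadherin complex to actin and binds plakophilin 2. Ctnna3 (ENSMUSG00000060843, chromosome 10, 63430098 to 65003667, plus strand, a protein-coding gene) measured 19.5 FPKM (13.5 to 25.5) in control and 2.25 FPKM (1.38 to 3.11) in Rbfox2 OE cells, 8.67-fold lower. The log2 ratio of -2.66 had a range of -3.47 to -1.82 by the bounds, and 39 of the 11697 genes compared had a ratio at or below it. Among the 10 disc genes, no other had a difference as large. Lrrtm3, a neuronal gene on the opposite strand within the span of Ctnna3, was listed at 0 in the control and at 0.0114 FPKM in Rbfox2 OE.

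The other α-catenin of the heart did not share this difference. Ctnna1, the broadly expressed αE-catenin, measured 189 FPKM (137 to 241) in control and 206 FPKM (149 to 263) in Rbfox2 OE cells, with overlapping intervals. The ratio of Ctnna3 to Ctnna1 was 0.103 in the control and 0.0109 in Rbfox2 OE, 9.47-fold lower. By the bounds it ran from 0.0562 to 0.186 in the control and from 0.00527 to 0.0209 in Rbfox2 OE, without overlap. Such a ratio does not depend on how the groups were scaled, since both genes of a group carry the same factor. It shows an unequal difference of the 2 genes and not which of them differed.

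β-catenin, encoded by Ctnnb1, binds the tail of N-cadherin and also acts in Wnt signalling. Ctnnb1 (ENSMUSG00000006932, chromosome 9, 120929216 to 120960507, plus strand, a protein-coding gene) measured 103 FPKM (69.9 to 135) in control and 47.2 FPKM (30.9 to 63.6) in Rbfox2 OE cells, 2.2-fold lower, log2 ratio -1.10, with separate bounds. The gap between the 2 intervals was 6.33 FPKM, and the separation was lost when the groups were rescaled without mitochondrial and the 10 most abundant genes (log2 ratio -0.95). The table placed Ctnnb1 in 1 locus with 5 other genes, of which the highest, Ulk4, reached 0.109 FPKM.

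Jup encodes plakoglobin, the close relative of β-catenin that occurs in both desmosomes and adherens junctions. Jup (ENSMUSG00000001552, chromosome 11, 100368958 to 100397763, minus strand, a protein-coding gene) measured 95.9 FPKM (56.1 to 136) in control and 130 FPKM (86.8 to 172) in Rbfox2 OE cells, and the intervals overlapped. The log2 ratio was 0.43, with a range from -0.64 to 1.6 by the bounds. Jup and Ctnnb1 were close in the control, with a Jup to Ctnnb1 ratio of 0.935 (0.415 to 1.94 by the bounds). In Rbfox2 OE the ratio was 2.74 (1.37 to 5.57), 2.93 times that of the control, but the ranges of the ratio overlapped.

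N-cadherin, encoded by Cdh2, is the classical cadherin of the adherens junctions of heart muscle. Cdh2 (ENSMUSG00000024304, chromosome 18, 16588877 to 16809246, minus strand, a protein-coding gene) measured 114 FPKM (82.0 to 146) in control and 51.0 FPKM (36.2 to 65.8) in Rbfox2 OE cells. That was 2.24-fold lower with separate bounds, a log2 ratio of -1.15. Cdh2 and its partner Ctnnb1 kept nearly the same proportion, with a Cdh2 to Ctnnb1 ratio of 1.11 in the control (0.606 to 2.09 by the bounds) and 1.08 in Rbfox2 OE (0.569 to 2.13). Ctnna3 was lower against Cdh2 as well: the ratio was 0.171 in the control (0.0928 to 0.311) and 0.0441 in Rbfox2 OE (0.0210 to 0.0861), without overlap.

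The desmosomal cadherins Dsg2 and Dsc2, which join the membranes of neighbouring cells, were both lower. Desmoglein 2 (Dsg2, ENSMUSG00000044393, chromosome 18, 20558074 to 20604521, plus strand, a protein-coding gene) measured 28.2 FPKM (19.7 to 36.7) in control and 8.35 FPKM (5.54 to 11.2) in Rbfox2 OE cells. It was 3.38-fold lower, with a log2 ratio of -1.64. Desmocollin 2 (Dsc2, ENSMUSG00000024331, chromosome 18, 20030633 to 20059554, minus strand, a protein-coding gene) measured 13.1 FPKM (9.16 to 17.1) in control and 5.30 FPKM (3.63 to 6.97) in Rbfox2 OE cells. It was 2.48-fold lower, with a log2 ratio of -1.17. Both pairs of intervals were separate. The Dsc2 to Dsg2 ratio was 0.466 in the control and 0.635 in Rbfox2 OE, with overlapping ranges. The 7 desmosomal cadherin genes typical of skin and other epithelia (Dsg1a, Dsg1b, Dsg1c, Dsg3, Dsg4, Dsc1 and Dsc3) were at or near 0 in both groups, at 0.0187 FPKM or less.

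The plaque proteins desmoplakin and plakophilin 2 had overlapping bounds. Desmoplakin (Dsp, ENSMUSG00000054889, chromosome 13, 38151294 to 38198577, plus strand, a protein-coding gene), which ties the plaque to desmin filaments, measured 241 FPKM (106 to 376) in control and 144 FPKM (83.7 to 205) in Rbfox2 OE cells. Its log2 ratio was -0.74, with a range from -2.16 to 0.95 by the bounds. Plakophilin 2 (Pkp2, ENSMUSG00000041957, chromosome 16, 16213318 to 16272712, plus strand, a protein-coding gene), an armadillo protein that recruits desmoplakin, measured 53.0 FPKM (37.7 to 68.4) in control and 32.2 FPKM (22.6 to 41.9) in Rbfox2 OE cells. Its log2 ratio was -0.70, and its intervals overlapped by 4.24 FPKM. The Pkp2 to Dsp ratio was nearly the same, 0.220 in control and 0.223 in Rbfox2 OE cells. The Dsg2 to Dsp ratio was 0.117 in the control (0.0524 to 0.348 by the bounds) and 0.0579 in Rbfox2 OE (0.0270 to 0.133), with overlapping ranges.

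ZO-1, encoded by Tjp1, is a scaffold protein that binds connexin 43 at the rim of gap junctions. Tjp1 (ENSMUSG00000030516, chromosome 7, 65296165 to 65527781, minus strand, a protein-coding gene) measured 20.8 FPKM (14.2 to 27.4) in control and 15.1 FPKM (10.5 to 19.8) in Rbfox2 OE cells. The intervals overlapped and the log2 ratio was -0.43. The Gja1 to Tjp1 ratio was 4.83 in the control (2.63 to 9.08 by the bounds) and 3.30 in Rbfox2 OE (1.79 to 6.12), also overlapping.

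RBFOX proteins bind GCATG, most strongly as TGCATG, in introns and 3′ untranslated regions, so the hexamer was counted on the sense strand in the annotated 3′ untranslated region of 1 coding transcript per gene (GENCODE M21). It occurred in 6 of the 10 disc genes, 4 of the 6 with separate bounds (Gja1, Dsg2, Dsc2 and Cdh2) and 2 of the other 4 (Pkp2 and Tjp1). Of the 11083 compared genes with a coding transcript, 31.3% held it. Among the 5276 with a region as long as those of the disc genes, 475 to 2186 bases, 30.8% held it. The region of Dsg2 held 2 copies, and those of Ctnna3, Ctnnb1, Jup and Dsp held 0. Introns were not searched, and a match is not a measured binding site.

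The copies in 3 disc genes are shown as 30 bases of the transcript, 5′ to 3′ and written with T, because RBFOX2 is the overexpressed factor. Capitals mark the hexamer. They lie at chr10:56390321-56390350 (plus strand) in Gja1, chr16:16272610-16272639 (plus strand) in Pkp2 and chr7:65297138-65297167 (minus strand) in Tjp1, on GRCm38.
Gja1: gttcagcttcatTGCATGtaatgtagacct
Pkp2: tagttgctcatcTGCATGtcacttccttaa
Tjp1: tttattttattaTGCATGaggtaatgtgca

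Other genes of these junctions were taken from lists of related genes, and Ctnna1, Vcl, Pkp4, Perp, Gjc1, Xirp1, Xirp2, Des, Axin2, Cdh5 and the cardiomyocyte markers are named for their role after their values were seen. Where 2 values follow each other, the control comes first. Beside the counts in these lists and the marker lists, 9.33% of all genes compared were lower with separate bounds and 6.67% higher. Of 10 other adherens junction genes compared, 0 were lower with separate bounds and 1 was higher, Cdh11, a cadherin of mesenchymal cells, at 1.32 FPKM in control and 2.78 FPKM in Rbfox2 OE cells. The median log2 ratio of these 10 was 0.06. Vinculin (Vcl), which binds α-catenin under tension, measured 44.5 FPKM (30.8 to 58.2) and 71.2 FPKM (50.5 to 91.9), and its bounds overlapped. Of 3 other desmosome genes compared, 0 had separate bounds, and Pkp4 and Perp had log2 ratios of -0.32 and -0.35.

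Among 6 other connexin and pannexin genes compared, 1 was lower and 1 higher with separate bounds. Gja3 (connexin 46) measured 8.75 FPKM (5.83 to 11.7) in control and 3.58 FPKM (2.2 to 4.95) in Rbfox2 OE cells. Gja4 (connexin 37), typical of arterial endothelium, measured 4.85 FPKM (3.12 to 6.59) in control and 11.5 FPKM (7.73 to 15.2) in Rbfox2 OE cells. Gjc1 (connexin 45), found in the conduction system, measured 5.76 FPKM and 10.4 FPKM with overlapping bounds. Gja1 stayed the most abundant connexin in both groups. The Gja1 to Gja4 ratio was 20.7 in the control (10.9 to 41.3 by the bounds) and 4.36 in Rbfox2 OE (2.33 to 8.34), without overlap, whereas the Gja1 to Gjc1 ratio, 17.4 and 4.78, had overlapping ranges.

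Of 12 zonula occludens and tight junction genes compared, 1 was lower with separate bounds and 0 were higher. The 1 was Cxadr, the coxsackie and adenovirus receptor of the disc membrane, at 10.9 FPKM (7.13 to 14.6) in control and 4.37 FPKM (2.59 to 6.16) in Rbfox2 OE cells.

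Of 23 other proteins found at or near the disc, 8 were lower with separate bounds and 0 were higher. By the same rule 9.33% of all genes compared were lower and 6.67% higher. The list's median log2 ratio was -0.58. The list was not compared on the scale of the cardiomyocyte markers. Among the 8 lower were the membrane anchors Ank2 (ankyrin B, 86.4 FPKM against 9.30 FPKM, log2 ratio -3.09) and Ank3 (ankyrin G, 22.5 FPKM against 5.56 FPKM, -1.84). The bounds of Ank2 were wide and allowed a log2 ratio from -5.63 to -0.64. The scaffold Sorbs2 measured 307 FPKM (122 to 492) and 43.6 FPKM (18.3 to 69.0). Fgf13, a partner of sodium channels, measured 55.5 FPKM and 9.61 FPKM, and the Z-disc protein Ldb3 measured 692 FPKM and 173 FPKM. By contrast, the disc proteins Xirp1 and Xirp2 and the filament protein desmin (Des) had log2 ratios of 0.13, -0.15 and 0.25 with overlapping bounds.

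**Figure D3:**
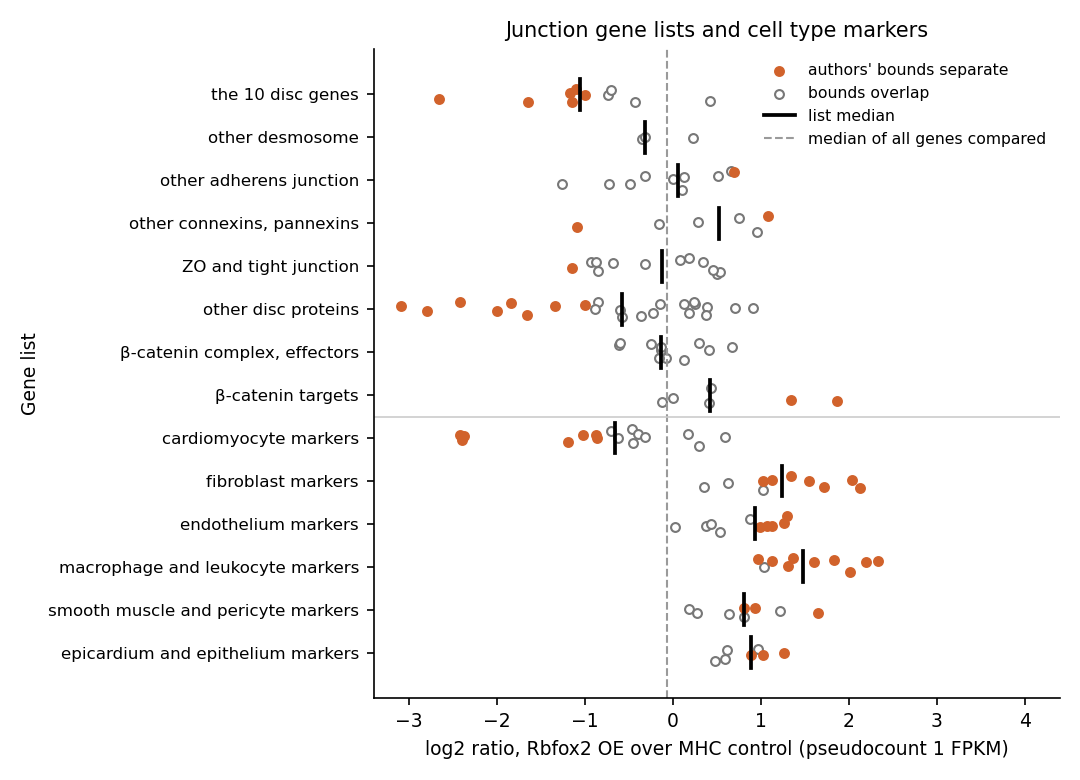
Log2 ratio (Rbfox2 OE over control) for each compared gene (points, filled where the authors' bounds are separate) in 8 lists of junction, disc and β-catenin pathway genes and 6 lists of cell type markers. Black bars are list medians and the dashed line is the median of all genes compared. The 10 disc genes have a median of -1.05, cardiomyocyte markers -0.66, and the marker lists of the other 5 cell types lie above 0.

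Because β-catenin also acts in Wnt signalling, its regulators and targets were compared. Of 11 genes of the destruction complex and nuclear effectors, 0 had separate bounds, and the median log2 ratio was -0.13. Of 6 genes compared from the list of target genes, 4 had overlapping bounds. With separate bounds, 0 were lower and 2 were higher. Whether these genes respond to β-catenin in these cells was not tested. The 2 higher genes were Myc, a transcription factor of cell growth, at 3.6 FPKM and 10.7 FPKM, and Dkk3, a secreted protein of the Dickkopf family, at 2.49 FPKM and 11.8 FPKM. Axin2, the most widely used readout of the pathway, measured 1.98 FPKM (0.972 to 3.00) in control and 2.0 FPKM (0.938 to 3.07) in Rbfox2 OE cells.

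Markers of the cells in the preparations also differed between the groups. Of 16 cardiomyocyte markers compared, 7 were lower with separate bounds and 0 higher, with a median log2 ratio of -0.66. The summed level of the list was 70500 FPKM in control and 43769 FPKM in Rbfox2 OE cells. Myh6 and Mb were listed at 0 in both groups, with the status HIDATA, which Cuffdiff gives to loci with too many fragments to estimate. Markers of other cells were higher. For fibroblasts, 7 of 10 were higher with separate bounds and the summed level was 246 FPKM and 585 FPKM. For endothelium, 5 of 10 were higher (243 FPKM and 440 FPKM). For macrophages and leukocytes, 9 of 10 were higher (127 FPKM and 431 FPKM). For smooth muscle and pericytes, 3 of 8 were higher (147 FPKM and 328 FPKM), and for epicardium and epithelium, 3 of the 7 compared (14.4 FPKM and 33.3 FPKM, summed over all 9 found). In these 5 lists 0 markers were lower with separate bounds and 0 were at 0 in both groups.

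Several disc genes are also expressed by those cells: plakoglobin, β-catenin and ZO-1 occur in endothelium, and connexin 43 and N-cadherin in fibroblasts. The part of other cells in the values of Jup, Tjp1 and Ctnna1 was not tested. Endothelial Cdh5 (VE-cadherin) measured 47.5 FPKM (33.5 to 61.5) in control and 88.0 FPKM (60.3 to 116) in Rbfox2 OE cells, with overlapping bounds. The ratio of Cdh2 to Cdh5 was 2.4 in the control (1.33 to 4.35 by the bounds) and 0.579 in Rbfox2 OE (0.312 to 1.09), without overlap.

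The disc genes were also set against the summed level of the cardiomyocyte markers. Of that sum 4 sarcomere genes, Myl2, Tnnt2, Tnni3 and Actc1, gave 70.9% in control and 72.7% in Rbfox2 OE cells, so the scale rests mostly on them. Myh6 and Mb, listed at 0 with the status HIDATA, added nothing to the sum. The log2 ratios of single markers ran from -2.42 (Pln) to 0.60 (Ttn) as deposited. The values of Rbfox2 OE were raised by 0.69 (log2), which put the median of all genes compared at 0.54. Of the disc genes, 2 were then lower with separate bounds, Ctnna3 with a log2 ratio of -2.15 and Dsg2 with -1.02. Jup was higher with separate bounds, at 1.11. By the same rule 2.50% of 12271 genes were lower and 21.1% higher. Gja1, Cdh2, Ctnnb1 and Dsc2 had log2 ratios between -0.57 and -0.32 on this scale, with overlapping bounds. Dsp and Pkp2 had log2 ratios of -0.05 and -0.03, and Tjp1 changed sign to 0.22.

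**Figure D4:**
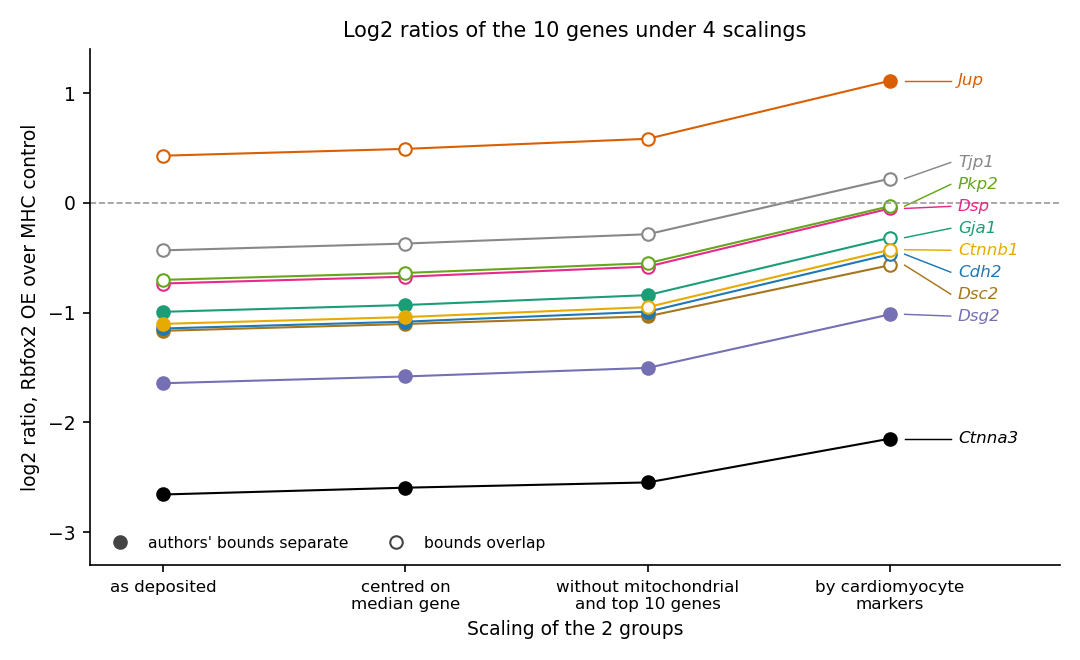
Log2 ratio of each disc gene under 4 scalings of the 2 groups, with filled points where the authors' bounds are separate. Ctnna3 and Dsg2 are lower with separate bounds under all 4 scalings, while Gja1, Cdh2, Ctnnb1 and Dsc2 overlap when scaled on cardiomyocyte markers, where Tjp1 crosses 0.

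The disc genes differed widely in size on the genome. Ctnna3 spanned 1574 kb, Tjp1 232 kb and Cdh2 220 kb, and the other 7 spanned between 25.2 kb and 59.4 kb. Across all genes compared, the median log2 ratio was lower in longer classes: 0.04 under 10 kb, -0.04 from 10 to 30 kb, -0.11 from 30 to 100 kb, -0.24 from 100 to 300 kb and -0.67 from 300 to 1000 kb. For the 18 genes of at least 1000 kb it was -0.79, and Ctnna3 was 1 of 2 in that class with a log2 ratio of -2.66 or below. Of the 3 longest disc genes, Ctnna3 and Cdh2 had separate bounds and Tjp1 did not. Of the 7 shorter ones, Gja1, Dsc2, Ctnnb1 and Dsg2 had separate bounds, and Dsp, Pkp2 and Jup did not. Of all genes compared, 7.56% from 10 to 30 kb and 10.6% from 30 to 100 kb were lower with separate bounds. The share was 15.7% from 100 to 300 kb, 29.8% from 300 to 1000 kb and 22.2% at 1000 kb or more. The part of gene span in these values was not tested.

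**Figure D5:**
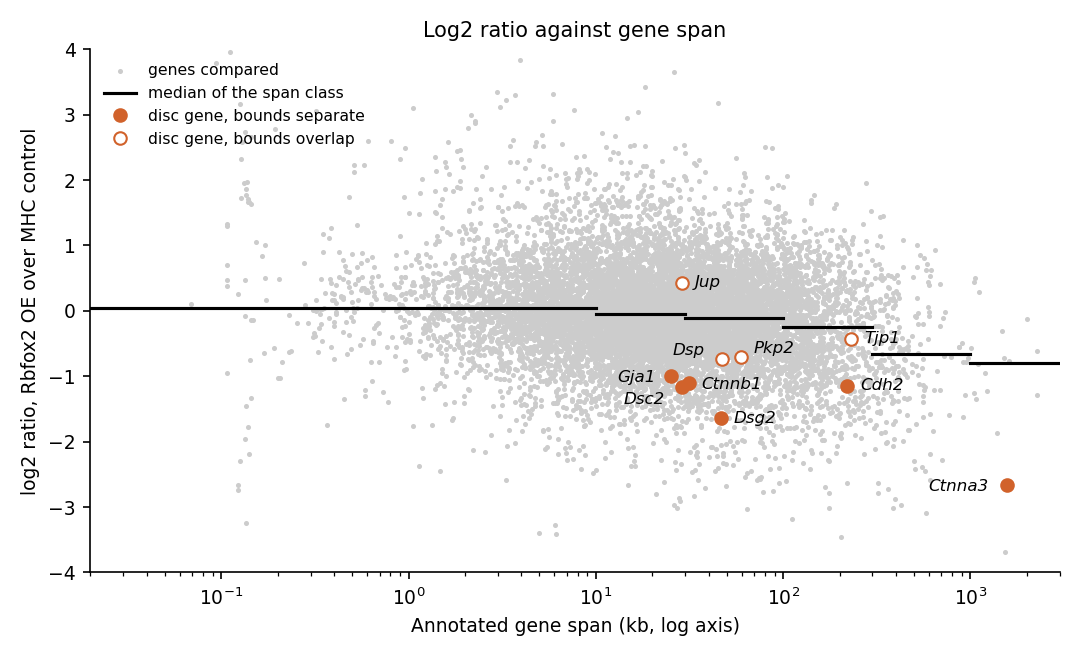
Log2 ratio (Rbfox2 OE over control) against annotated gene span (kb, log axis) for all genes compared with a log2 ratio between -4 and 4 (grey; 30 genes lie outside), with black lines for the median of each span class and orange points for the disc genes. Ctnna3 lies far to the right, below the median of its class but above the 5th percentile of that class (-2.81). Dsg2, at -1.64, lies below the 5th percentile (-1.39) of the class from 30 to 100 kb.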

How the data were processed

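Per the labels' protocols, polyadenylated RNA of isolated cardiomyocytes was sequenced on a HiSeq4000 from stranded TruSeq libraries. The submitters' processing notes name bcl2fastq 2.17.1.14, Trimmomatic, STAR 2.4.2a, Picard 1.119, HTSeq, DESeq2, Cuffdiff 2.2.1 and the builds GRCm38 and mm10, without roles. The deposited values are FPKM, per the file headers, as 1 pooled value per gene and group with bounds, in the layout of Cuffdiff. The annotation, normalization mode and use of strand in counting are not given in the sources used here, so reads of overlapping genes may have been split.

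Rows sharing a name (110 names) were summed. Log2 ratios used a pseudocount of 1 FPKM, which understates differences of low genes. The genes compared averaged 1 FPKM or more over the groups. Bounds count as separate where the upper bound of 1 group lies below the lower bound of the other. The limma fit listed in the plan needs values per library and was not possible, so no p-values were computed, and the depth is unknown. Columns of per-library values left unused numbered 0. Alternatives changed the pseudocount, the minimum, the fold threshold, the status filter and the scaling, which was centred on the median gene, taken without mitochondrial and the 10 most abundant genes, or set by the summed cardiomyocyte markers.

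The members and lists were chosen with earlier results of these data known. Named are all 10 members and, from each other list, up to 5 genes with separate bounds and the largest log2 ratio in size. Positions come from GENCODE M21 (GRCm38), which held 99.2% of the gene identifiers. Upstream sequences were found in RefSeq for 6 members outside chromosome 18, and none are shown from that chromosome. The code was run on simulated data with known changes. That checks the calculations only and gives no error rate for separate bounds, because the level of the bounds is unknown. Python 3.11.15 and pandas 2.3.3 were used.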

Additional observations from a re-analysis of the deposited data

How the results depend on the processing

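No paired analysis was possible because each group has a single pooled FPKM column, and for the same reason no library could be left out. The authors' bounds and unknown depth limit every value. Among the 10 disc genes this holds most of all for Dsp, whose bounds are the widest of the 10. Single genes had 80 values under 8 alternatives (pseudocount, scaling, filter, status). Of these, 78 kept their sign and stayed within the range that the bounds allow. Changes of the minimum and the status filter cannot alter a gene's log2 ratio, so those values were fixed in advance. The ranges by the bounds are also wide, so the count is a weak check. A pseudocount of 5 moved Ctnna3 to -1.76, and scaling on cardiomyocyte markers reversed Tjp1 to 0.22. The count of 6 genes with separate bounds fell to 3 (2 lower and 1 higher) on that scaling, against 2.50% of all genes lower and 21.1% higher. The same scaling gave 3 genes at least 2-fold apart in place of 5, with Ctnna3 and Dsg2 lower and Jup higher. Of all genes, 3.02% were at least 2-fold lower on it, and the share higher was not computed. Rescaling without mitochondrial and the 10 most abundant genes moved the median of all genes to 0.07. It also gave 3, because Cdh2 and Ctnnb1 came to lie just under 2-fold. These 3 (Ctnna3, Dsc2 and Dsg2) were all lower, against 7.73% of all genes lower. A 1.5-fold threshold gave 8 genes, all lower, against 22.1% of all genes lower and 16.6% higher, and a 4-fold threshold gave 1 lower gene, against 1.32% lower and 1.16% higher. The median log2 ratio of the 10 genes lay between -1.06 and -0.37.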

Other observations

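The neighbours of the desmosomal cadherins on chromosome 18 give values outside the comparisons above. The table placed Dsg2 in 1 locus with Ttr (20665280 to 20674321), which encodes transthyretin, a plasma carrier protein made mainly by liver. Ttr measured 11 FPKM in both groups (bounds 0 to 23.4 in control and 3.11 to 18.9 in Rbfox2 OE cells), while Dsg2 was lower with separate bounds. The next gene, B4galt6 (20684599 to 20746404), a glycosyltransferase, measured 6.12 FPKM (bounds 4.24 to 8.0) and 5.32 FPKM (bounds 3.68 to 6.96). Of the desmosomal cadherin genes of this cluster, Dsg3, Dsg4 and Dsc1 were listed at 0 in both groups.

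Another pair of adhesion genes was chosen after their values were seen. Cdh13, a cadherin held by a lipid anchor, measured 151 FPKM (bounds 78.6 to 223) and 62.5 FPKM (bounds 33.1 to 92.0), a log2 ratio of -1.25 with overlapping bounds. Tmem65, a membrane protein of the disc that binds connexin 43, measured 46.8 FPKM (bounds 33.2 to 60.4) and 14.2 FPKM (bounds 9.89 to 18.6), with separate bounds.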
